A study of Mus musculus with 30 samples.

Results

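Floor plate cells captured at embryonic day 13 (E13) were compared with those captured at embryonic day 11 (E11), the interval in which the ventral midbrain begins to make neurons. The comparison used 9 of the 30 libraries of the series, 4 at E11 and 5 at E13, taken by their sample names from the table of laser captured libraries. Every library was polyadenylated RNA of the mouse midbrain floor plate with the genotype Lmx1aCreERT2; R26TRAPC, so both ages carried the same alleles and there was no other genotype among them. Lmx1aCreERT2 is a tamoxifen-inducible Cre recombinase driven from Lmx1a, a floor plate gene. The labels do not say how the captured areas were tied to embryos or how many embryos there were. The p-values therefore measure a spread between libraries, and they would be too small if several captures came from 1 embryo. That spread was estimated within each of 4 ages over all 20 captured libraries, and not from these 9 alone.

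The midbrain floor plate is a strip of radial glia along the ventral midline that secretes Shh and, unlike floor plate further back, becomes neurogenic and gives rise to dopamine neurons. Progenitors there divide first to expand and then to make neurons, and later turn to glia, and Sox9 and transcription factors of the nuclear factor I family (Nfi) are known in other parts of the nervous system for the onset of glial genes. The series title names these factors in the context of the timing of neurogenesis and of ependymal maturation.

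Levels are the deposited values, called units, which behave as RPKM, reads scaled to gene length and library size, so that levels can be set side by side between genes. A gene was listed at an age where its mean was at least 1 unit. Of 14997 genes, 11567 were listed at both ages and were tested, 814 were listed at E13 only and 654 at E11 only. Differences are E13 minus E11 on log2(value + 1), with limma's standard error (SE) and p-values adjusted by Benjamini-Hochberg over the 11567 genes, which makes the change of a low gene look smaller than it is. At an adjusted p of 0.05, 1092 genes (9.44%) rose and 1329 (11.5%) fell, 2421 (20.9%) in all, and the median difference of all genes was -0.04. All 5 E13 libraries lay above all 4 E11 libraries for 1300 genes (11.2%), and below them for 1986 (17.2%). These shares are the background against which the counts below are to be read. Implied library sizes were 4180000 to 4920000 reads at E11 and 3610000 to 5510000 reads at E13. Across genes, log2 levels correlated at 0.962 to 0.973 between E11 libraries, 0.938 to 0.973 between E13 libraries and 0.875 to 0.935 between the ages.

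**Figure D1:**
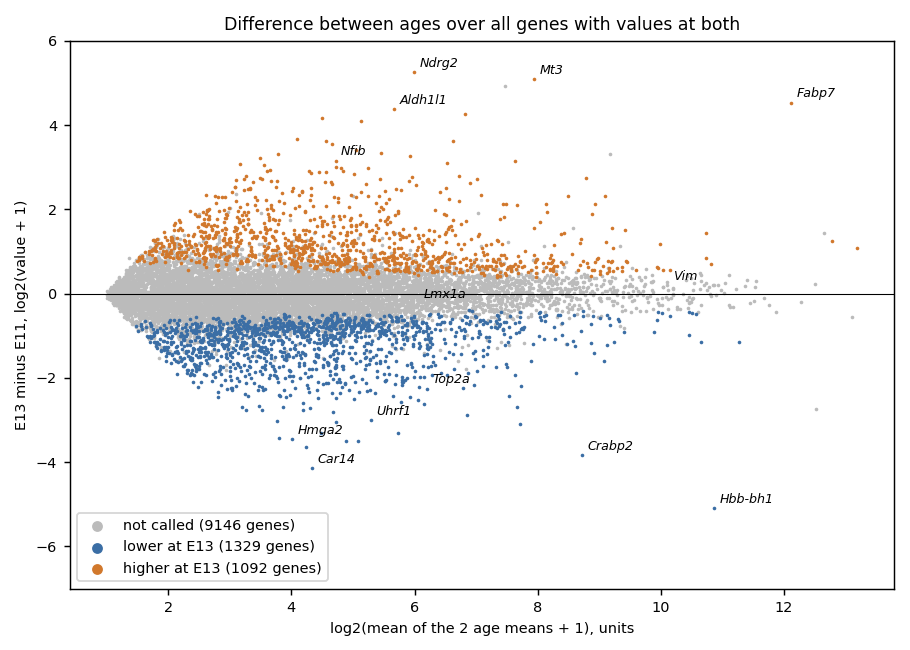
Difference between the ages (E13 minus E11 on log2(value + 1), vertical axis) against the mean level of each of the 11567 genes listed at both ages (horizontal axis, log2 scale); orange points rose and blue points fell at an adjusted p of 0.05, grey points did not pass. Ndrg2 and Fabp7 stand far above 0, Hbb-bh1, Car14 and Crabp2 far below, and Lmx1a and Vim lie near 0.

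Short motifs were searched in the promoters of several gene lists, and 4 promoters are shown. They are Mcm5 for DNA replication, Top2a and Ncapd2 for mitosis, and Nsg2 for newborn neurons. They come from passing members with small p-values whose promoter holds the motif, so its presence in them was fixed by the choice. Lig1, Chaf1a and Rrm1 had smaller p-values than Mcm5, and Tubb2a than Nsg2. Each is 250 bases before to 50 bases after the start of the gene, from RefSeq on GRCm38.p6, read 5′ to 3′ along the gene. Capitals mark an E2F site in Mcm5, the cell cycle homology region (TTTGAA or TTCAAA) and the CCAAT box (CCAAT or ATTGG) in Top2a and Ncapd2, and E boxes in Nsg2. Other motifs searched are left in lower case: Mcm5 also holds CCAAT boxes and Ncapd2 the E2F letters TTTGGCGC. Mcm5 lies on the forward strand at chr8:75109259-75109558, Top2a on the reverse strand at chr11:99024140-99024439, Ncapd2 on the reverse strand at chr6:125191537-125191836 and Nsg2 on the forward strand at chr11:32000169-32000468.
Mcm5: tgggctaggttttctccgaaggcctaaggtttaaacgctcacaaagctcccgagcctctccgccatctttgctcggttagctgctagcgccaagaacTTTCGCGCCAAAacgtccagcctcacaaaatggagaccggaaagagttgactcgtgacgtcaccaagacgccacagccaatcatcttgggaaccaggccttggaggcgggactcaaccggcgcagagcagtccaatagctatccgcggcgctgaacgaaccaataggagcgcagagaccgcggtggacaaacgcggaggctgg
Top2a: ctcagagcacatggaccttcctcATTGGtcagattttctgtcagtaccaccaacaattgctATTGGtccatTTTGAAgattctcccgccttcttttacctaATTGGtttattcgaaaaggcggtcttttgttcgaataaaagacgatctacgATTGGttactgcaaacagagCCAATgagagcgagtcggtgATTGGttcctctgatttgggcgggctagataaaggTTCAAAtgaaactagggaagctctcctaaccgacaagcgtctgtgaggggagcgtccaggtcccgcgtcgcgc
Ncapd2: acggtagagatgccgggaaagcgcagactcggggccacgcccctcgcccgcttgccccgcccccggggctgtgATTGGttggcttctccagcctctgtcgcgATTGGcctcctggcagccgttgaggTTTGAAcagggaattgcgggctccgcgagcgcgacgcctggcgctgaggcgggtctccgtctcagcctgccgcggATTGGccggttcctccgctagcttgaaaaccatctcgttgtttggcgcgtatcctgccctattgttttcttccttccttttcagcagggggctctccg
Nsg2: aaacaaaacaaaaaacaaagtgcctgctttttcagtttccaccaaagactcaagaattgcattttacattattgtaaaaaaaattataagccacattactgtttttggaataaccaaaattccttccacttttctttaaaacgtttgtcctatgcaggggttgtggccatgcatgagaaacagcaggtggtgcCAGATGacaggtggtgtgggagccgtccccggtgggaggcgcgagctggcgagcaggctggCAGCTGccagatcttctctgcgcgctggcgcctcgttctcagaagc

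The E2F sites searched were TTTGGCGC, TTTCCCGC, TTTGCCGC and TTTCGCGC on both strands, and in Mcm5 a pair of them overlap, the first starting at position -153 from the start of the gene. An E2F site was present in 12 of 31 replication promoters (38.7%) and in 432 of the 8674 tested genes with a promoter sequence (4.98%). The cell cycle homology region, a motif known for genes expressed late in the cell cycle, was present in 28 of 34 mitosis promoters (82.4%) and in 1165 tested genes (13.4%). The CCAAT box was present in 82.4% of the mitosis promoters, 61.3% of the replication promoters, 64.7% of the proneural, 65% of the radial glia and 43.8% of all tested promoters. E boxes of the forms CAGCTG and CAGATG, the letters that proneural factors are known to bind, were present in 8 of 17 promoters of proneural and cell cycle exit genes (47.1%) and 12 of 28 of newborn neuron genes (42.9%), against 27.7% of the tested genes. They were about as frequent in astrocyte promoters (8 of 18, 44.4%) and in those of early progenitor genes (3 of 7, 42.9%), a list that fell, and were in 2 of 20 radial glia promoters (10%). The full Nfi palindrome, TTGGC and GCCAA with 5 bases between them, was present in 2 tested promoters (0.0231%) and in none of the 20 radial glia and 18 astrocyte promoters. A match to these letters is a description of the sequence and not a binding site, and over the 27025 promoters of the table the shares were 2.6% for E2F, 20.2% for the homology region, 41.1% for CCAAT and 33.4% for the E box.

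**Figure D2:**
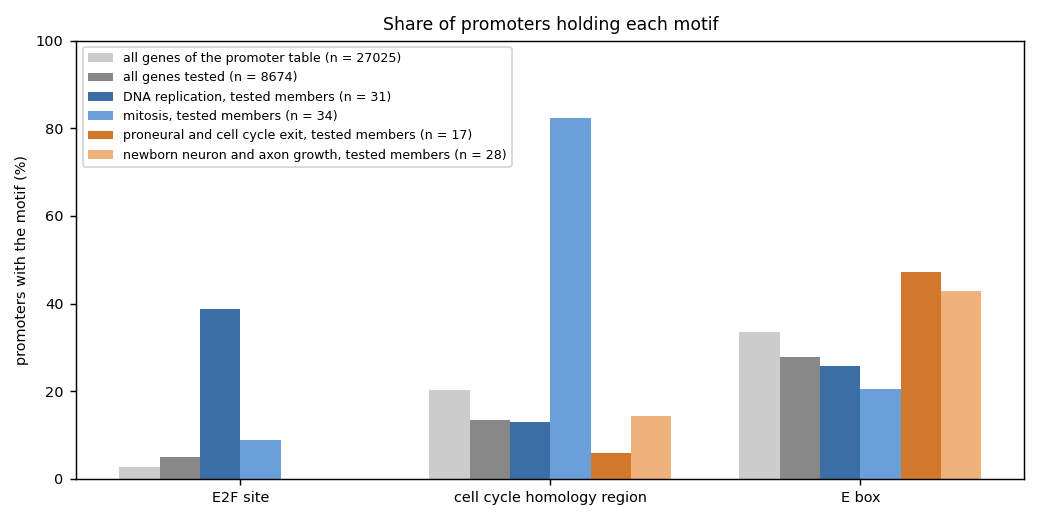
Share of promoters (percent, bars from 0) that hold an E2F site, a cell cycle homology region or an E box, in all promoters of the RefSeq table, in those of all genes tested and in those of 4 gene lists, with the number of promoters in each set in the key. The E2F bar of the DNA replication list reaches 38.7% and the homology region bar of the mitosis list 82.4%, and no proneural or newborn neuron promoter held an E2F site.

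Nfia and Nfib, 2 of the 4 Nfi genes, rose from under 9 units in each E11 library to over 27 in each E13 library between E11 and E13. Nfia (chr4:97772734-98118874, GRCm38) was at 3.55, 6.74, 3.12 and 8.62 units in E11 replicates 1 to 4 and at 93, 48.5, 34.9, 27.3 and 43 units in E13 replicates 1 to 5. Its lowest E13 library was above its highest E11 library, and the difference was 2.92 ± 0.32 (SE), with an adjusted p of 1.58e-06 in limma. Nfib (chr4:82290173-82705750) was at 2.97, 4.8, 4.1 and 4.85 units at E11 and at 67.1, 44.5, 53.6, 27.3 and 40.1 units at E13, again with no overlap, a difference of 3.15 ± 0.26 and an adjusted p of 4.92e-08. Nfix (chr8:84699876-84800344) was listed at E13 only, at 12.3, 8.25, 13.1, 6.66 and 15.2 units. Nfic (chr10:81396186-81455635) stayed near the listing limit, at 1.28 to 1.73 units at E11 and 1.3 to 1.56 at E13, and did not pass the test (difference -0.03 ± 0.25).

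Sox9 (chr11:112782224-112787760) was at a higher level than Nfia, Nfib and Nfic in each E11 library. It was at 37.3, 61.1, 53 and 74.8 units at E11 and 120, 66.1, 148, 65.1 and 129 units at E13. E13 replicates 2 and 4 lay inside the E11 range, and the other 3 lay above it. The difference of 0.85 ± 0.29 passed in limma (adjusted p 0.0385). It no longer passed when any one of 6 of the 9 libraries was left out: the adjusted p was 0.154, 0.0578 and 0.0851 without E11 replicates 1, 2 and 3, and 0.0835, 0.108 and 0.087 without E13 replicates 1, 3 and 5. In the older captures, Nfia averaged 133 units at E18 and 96.4 at postnatal day 70 (P70), Nfib 37.2 and 15.7, and Nfix 26.4 and 62.6, so that of these 3 genes Nfib alone had its highest mean at E13 (46.5 units).

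**Figure D3:**
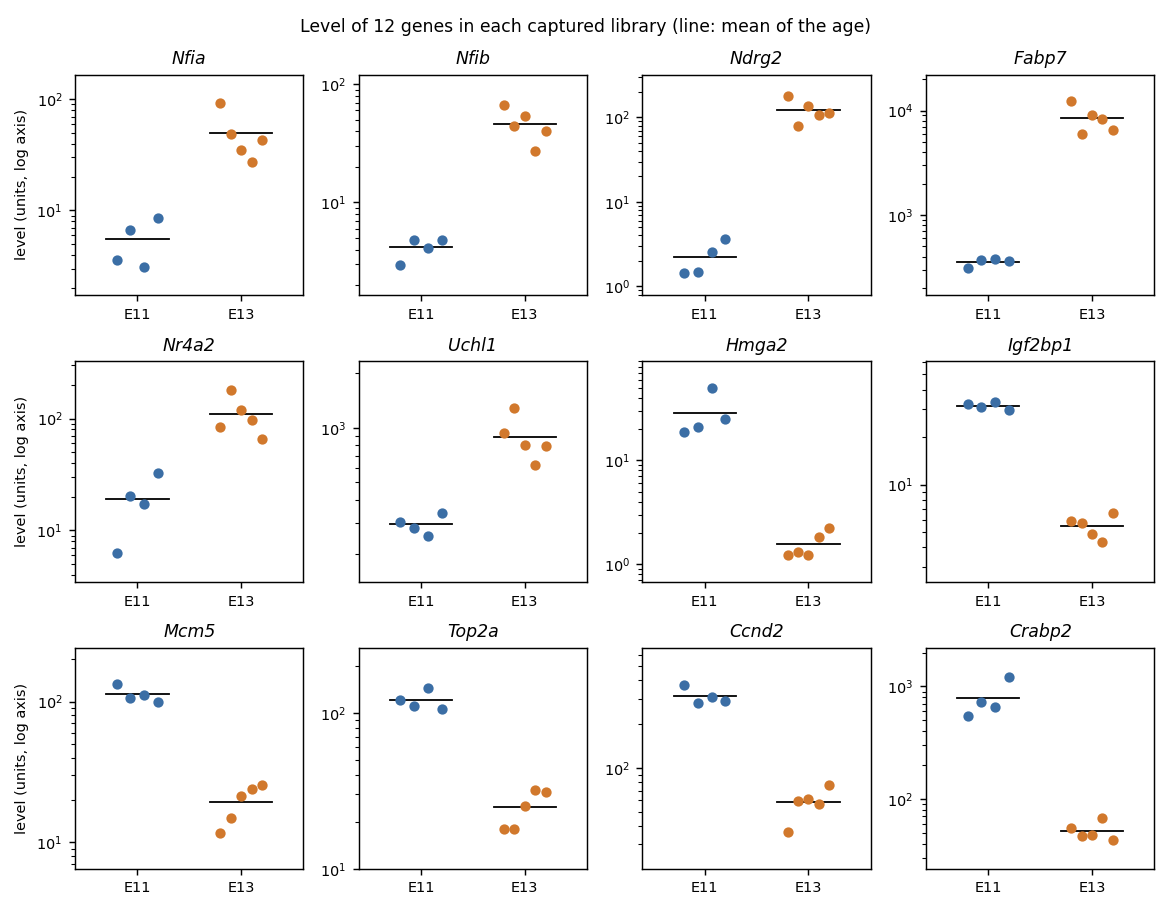
Level of 12 genes (units, logarithmic axis, a different range in each panel) in the 4 E11 libraries (blue) and the 5 E13 libraries (orange); points are libraries and lines are the mean of the age. In each of the 12 panels the points of the 2 ages do not overlap; Nfia, Nfib, Ndrg2, Fabp7, Nr4a2 and Uchl1 are higher at E13, and Hmga2, Igf2bp1, Mcm5, Top2a, Ccnd2 and Crabp2 are lower.

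Of 17 tested transcription factors known to mark early or late stages of neurogenesis, Nfia and Nfib among them, 5 rose and none fell. The others included Tcf4, a basic helix-loop-helix partner factor, at 16.1, 22.7, 19.8 and 22.4 units at E11 and 85.5, 66, 63.1, 39.5 and 60.7 at E13 (difference 1.56 ± 0.28). Zbtb20, a zinc finger repressor of later progenitors, was at 3.71, 5.58, 2.18 and 12.2 units and then at 16.9, 27.2, 33.7, 12.6 and 37.8 units (2.04 ± 0.40). E11 replicate 4, at 12.2, came close to E13 replicate 4, at 12.6. Neurod6 and Neurod2, factors of postmitotic neurons, were listed at E13 only, Neurod6 at 17.1, 12.3, 11.4, 3.65 and 2.41 units.

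Genes known to set an early progenitor state fell. Of 17 such genes, 10 were tested and 9 of them fell, none rose, and their median difference was -1.67; 4 more were listed at E11 only. The RNA-binding protein Igf2bp1 was at 32.6, 30.9, 33.6 and 29.7 units at E11 and at 5.87, 5.71, 4.87, 4.35 and 6.63 units at E13 (difference -2.34 ± 0.19, adjusted p 3.68e-06). Hmga2, a chromatin protein that is a target of let-7 miRNAs, was at 18.8, 21, 50.1 and 25.2 units and then at 1.23, 1.31, 1.21, 1.82 and 2.25 units (-3.45 ± 0.29). Sall4, a pluripotency-associated zinc finger protein, was at 29.9, 16.4, 37.5 and 15 units and then at 0.726 to 1.83 units (-3.42 ± 0.30). The E13 libraries all lay below the E11 libraries for these 3 genes.

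Igf2bp2 (27.6 to 45.4 units at E11, 3.86 to 4.63 at E13) and Igf2bp3 (56.3 to 76.6, then 16.6 to 24.5) fell with Igf2bp1. Lin28b, an RNA-binding protein that blocks let-7 maturation, was listed at E11 only, at 8.48, 4.4, 14.6 and 5.55 units. Its paralog Lin28a was also listed at E11 only, at 0.692, 1, 4.28 and 1.8 units, as were Nr6a1 and Arid3a. E11 replicate 3 was the highest library for Hmga2, Sall4, Lin28a and Lin28b. Mycn was the tested member that did not pass, at 29.7 to 38.3 units at E11 and 19.4 to 31.3 at E13 (-0.32 ± 0.20). Hmga1 had no value under its own symbol at either age. Lines with a repeated symbol were left out and joined symbols were not matched, so a missing value need not mean a low level. The count of falls was 8 or 9 when each library was left out in turn.

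Genes of the cell division cycle were lower at E13 almost without exception. Of 39 tested genes of DNA replication 36 fell, and of 40 genes of mitosis 38 fell; none rose in either list, and all 79 had every E13 library below every E11 library. The median difference was -1.80 for replication and -1.70 for mitosis. Among the helicase and origin genes, which open DNA at the start of S phase, all 17 fell, and among the polymerases, clamp and nucleotide genes 19 of 22.

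Mcm5, a subunit of the replicative helicase, was at 133, 106, 112 and 98.9 units at E11 and at 11.7, 14.9, 21.2, 24 and 25.6 units at E13. The fall of 5.78-fold in the mean gave a difference of -2.52 ± 0.30 (adjusted p 5.22e-06 in limma). Chaf1a, a histone chaperone subunit that acts behind the replication fork, was at 36, 26.9, 34 and 24.1 units and then at 2.7, 3.59, 3.81, 6.67 and 4.39 units (-2.60 ± 0.27). Lig1, which joins Okazaki fragments, was at 82.3 to 105 units and then at 14.6 to 27.2 units (-2.16 ± 0.21). Within E13, replicate 1 was the lowest library for Mcm5, Chaf1a and Lig1.

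Top2a, the topoisomerase that untangles replicated chromosomes, was at 121, 110, 144 and 106 units at E11 and at 18, 18, 25.4, 32.2 and 31.2 units at E13 (-2.26 ± 0.23, adjusted p 3.72e-06). Mki67, the proliferation marker Ki-67, was at 34.4, 35, 37.6 and 31 units and then at 4.84, 4.94, 6.16, 9.23 and 6.55 units (-2.30 ± 0.21). Ncapd2, a condensin subunit, was at 47.2 to 52.7 units and then at 9.67 to 13.3 units (-1.99 ± 0.23). Levels at E13 were still well above the listing limit, so that transcripts of dividing cells remained detectable in each E13 library.

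Summed over the list, mitosis genes came to 4911, 4862, 4426 and 4473 units in the E11 libraries and 1065, 976, 1609, 2382 and 2005 units in the E13 libraries. Replication genes came to 4443, 4016, 3965 and 3692 units and then to 937, 1006, 1376, 1781 and 1426 units. E13 replicates 1 and 2 were the lowest in both sums and replicate 4 the highest. In bulk captures, fewer cells of a type and less RNA per cell cannot be told apart, here or in any sum below. With E11 replicates 1 and 3 left out, 31 replication and 29 mitosis genes fell.

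Regulators of the entry into the cycle fell in part. Of 25 tested G1 regulators 10 fell and none rose (median -0.72), and 2 more, E2f2 and E2f7, were listed at E11 only. Without E11 replicates 1 and 3, 6 fell. With only the 9 libraries, or with quantile normalization of these, 3 rose and 13 fell. With a weight per library 4 rose and 13 fell. All E13 libraries lay above all E11 libraries for 2 members and below them for 12. The D cyclin Ccnd2, which drives G1 progression, was at 370, 278, 309 and 291 units at E11 and at 36.5, 59.4, 61.1, 56.6 and 77 units at E13, a 5.37-fold lower mean (-2.44 ± 0.24, adjusted p 3.75e-07). Ccnd1 was at 46.1, 31.8, 62.3 and 35.8 units and then at 7.78, 8, 11, 8.38 and 11.5 units (-2.09 ± 0.28). Ccne1, the cyclin of S phase entry, was at 30.4 to 41.8 units and then at 2.54 to 10.4 units (-2.47 ± 0.35).

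Cdk inhibitors, which hold cells out of the cycle, did not pass. Cdkn1c was at 146, 210, 354 and 333 units at E11 and at 260, 293, 279, 379 and 418 units at E13. Cdkn1b was at 21.3 to 28.3 units at E11, and at E13 it was at 70.8 and 45.5 units in replicates 1 and 2 but at 15.9, 15.7 and 21.3 units in replicates 3 to 5. Its 3 later-numbered E13 libraries were thus at or below the E11 range while the others were above it.

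Proneural factors, which start neuronal differentiation, were already expressed at E11. Neurog2 was at 62.4, 134, 114 and 181 units at E11 and at 119, 157, 188, 270 and 313 units at E13, with overlap and an adjusted p of 0.115 (difference 0.77 ± 0.32). E11 replicate 1 was its lowest and E13 replicates 4 and 5 its highest libraries. Neurog1 was listed at E11 only, at 5.55, 11.2, 10.4 and 14.1 units.

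Of 21 tested proneural and cell cycle exit genes, 5 rose and none fell, with a median difference of 0.66. Leaving out 1 library lowered the count to between 1 and 3 in 7 cases: 2 without E11 replicate 1, 2 without E11 replicate 2, 1 without E11 replicate 3, 3, 2, 2 and 1 without E13 replicates 2, 3, 4 and 5. It was 0 without E11 replicates 1 and 3. With only the 9 libraries, or with quantile normalization of these, 9 members rose and 2 fell. With a weight per library 10 rose and 2 fell. All E13 libraries lay above all E11 libraries for 2 members and below them for 2. Sstr2, a somatostatin receptor, was at 2.25, 3.82, 0.621 and 1.84 units at E11 and at 9.07, 4.43, 14.5, 14.4 and 16.6 units at E13 (2.02 ± 0.42, adjusted p 0.0014). Btg2, an antiproliferative gene known to mark neurogenic divisions, had every E13 library (81.9 to 136 units) above every E11 library (61.8 to 78.5 units). It did not pass in the fit of all 20 captured libraries (adjusted p 0.0914). It passed in limma with only the 9 libraries (adjusted p 0.00648), quantile normalization of these (0.0053) or a weight per library (0.0156).

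Genes of newborn neurons and growing axons rose. Of 43 tested, 23 rose and 1, Sox12, fell, with a median difference of 1.02. Cytoskeleton and growth cone genes made up 18 of the rises among 28 tested. Tubb3, the neuronal beta tubulin, was at 203, 319, 348 and 576 units at E11 and at 975, 1541, 1013, 732 and 720 units at E13 (1.5 ± 0.27, adjusted p 0.000486). Mapt, which encodes the axonal protein tau, was at 0.827, 3.13, 5.88 and 7.36 units and then at 60.2, 101, 42.5, 14.4 and 15.1 units (3.01 ± 0.49). Nsg2, a vesicle protein of young neurons, was at 8.26, 14.8, 19.6 and 20.2 units and then at 115, 99.8, 77.7, 45.8 and 54.1 units (2.24 ± 0.28). In all 3 genes the ages did not overlap, E11 replicate 1 was the lowest E11 library, and E13 replicates 4 and 5 were the lowest E13 libraries.

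Stmn2, a growth cone protein that binds tubulin, overlapped between the ages, at 37.1, 68.2, 123 and 172 units at E11 and 521, 960, 430, 239 and 150 units at E13 (2.13 ± 0.45, adjusted p 0.00162). Dcx, the microtubule protein of migrating neurons, was at 6.68 to 23.7 units and then at 17.5 to 74.5 units, and its adjusted p of 0.0459 rose above 0.05 without any one of E11 replicates 1, 2 and 3 (0.178, 0.088, 0.0619) or E13 replicates 1, 2 and 3 (0.101, 0.114, 0.0772). Tubulin genes have near-identical copies, and their values are uncertain to the extent that shared reads were split between them. The summed level of the 43 genes was 5390, 6900, 7328 and 8803 units at E11 and 17480, 21996, 15761, 13541 and 11815 units at E13. The 2 E13 libraries with the highest neuronal sums, replicates 1 and 2, were those with the lowest sums of replication and mitosis genes, which is stated for these 5 libraries as a description. The count of rises was 10 of 43 without E11 replicates 1 and 3.

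Synaptic genes rose in 15 of 29 tested and fell in none (median 1.32), and 6 more were listed at E13 only. Uchl1, a neuronal ubiquitin hydrolase, was at 304, 280, 254 and 338 units at E11 and at 937, 1293, 806, 625 and 789 units at E13, a difference of 1.56 ± 0.20 with an adjusted p of 9.16e-06. Scg3, a granin of secretory granules, was at 9.62, 21.3, 25.2 and 28.4 units and then at 101, 113, 86.1, 60.8 and 55.1 units (1.97 ± 0.27). E13 replicate 2 was the highest library for both of these genes. Without E11 replicates 1 and 3 the count of rises was 7.

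Among neuronal splicing factors, 4 of 14 tested rose and 1 fell. Rbfox1, which sets neuronal exon choice, was at 0.451 to 2.71 units at E11 and 3.26 to 10.9 units at E13 (1.64 ± 0.37). Celf3 and Khdrbs2 were listed at E13 only, Khdrbs2 at 9.96 to 14.1 units. Khdrbs3 was the member that fell, from 41.4 to 60.3 units down to 16.7 to 37.8 units (adjusted p 0.0136; 0.0605 without E11 replicate 3). None of the 14 passed without E11 replicates 1 and 3.

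Dopamine neuron genes rose unevenly. Of 27 members 18 were tested, 8 rose and 1, Lpl, fell. Another 4 were listed at E13 only and 2, Lmx1b and Aldh1a1, at E11 only. The rises included En1 and En2, which are also on the floor plate list. Nr4a2 (Nurr1), the nuclear receptor that specifies dopamine neurons, was at 6.24, 20.2, 17.2 and 32.7 units at E11 and at 83.7, 180, 118, 97.3 and 65.8 units at E13 (2.57 ± 0.38, adjusted p 4.82e-05). Pitx3, a later homeodomain factor of the same neurons, was listed at E13 only, at 18, 43.4, 14.4, 14.3 and 9.09 units. Slc6a3, the dopamine transporter, was also listed at E13 only, at 2.58, 11.5, 0.429, 0.426 and 0.6 units.

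Th, the rate-limiting enzyme of dopamine synthesis, was at 58.4, 60.4, 27.9 and 52.1 units at E11 and at 85.4, 238, 81.2, 73.3 and 23.8 units at E13. E13 replicate 5 was below all E11 libraries, and Th did not pass (0.70 ± 0.82, adjusted p 0.6). Ddc, the next enzyme of the pathway, was at 16.6 to 27.6 units and then at 157, 335, 122, 90.9 and 33.1 units (2.41 ± 0.70, adjusted p 0.0165; 0.0504 without E13 replicate 2). Gfra1, a receptor of the growth factor GDNF, was at 11.3 to 15.1 units and then at 22.1, 46.1, 38.1, 38.3 and 35.2 units (1.32 ± 0.25). E13 replicate 2 was the highest library for Nr4a2, Pitx3, Slc6a3, Th, Ddc and Gfra1, and the list's sum was 1775 units there and 735 to 985 in the other E13 libraries, against 553 to 585 at E11. Without E13 replicate 2 the count of rises was 5, without E11 replicate 4 it was also 5, and without E11 replicates 1 and 3 it was 3.

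Floor plate identity genes were the label check. Of 19 tested members, 3 rose, 1 fell and 15 did not pass, with a median difference of 0.20 and summed levels of 951 to 1141 units at E11 and 1085 to 1370 at E13. The falls numbered 2 without E13 replicate 4 or 5, and without E11 replicates 1 and 3 there was 1 rise and no fall. Lmx1a was at 74.9, 76.9, 58 and 72.5 units at E11 and at 62.2, 79, 57.2, 52.5 and 50.5 units at E13 (-0.23 ± 0.29). Foxa2, which with Lmx1a defines this floor plate, was at 76.8 to 113 units and then at 90.5 to 125 units (0.20 ± 0.22). The defining markers were thus present in all 9 libraries.

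En1, a homeobox gene of the midbrain and anterior hindbrain, rose from 24.3, 20.7, 12.4 and 6.93 units to 99.8, 130, 89, 106 and 105 units (2.77 ± 0.51, adjusted p 0.000509). Its paralog En2 was at 5.61, 5.59, 1.89 and 0.889 units and then at 11.5 to 17.3 units (1.94 ± 0.54, adjusted p 0.0123; 0.0548 without E11 replicate 4). In both, E11 replicates 3 and 4 were the lowest libraries. Msx1, a factor upstream of neurogenesis in this floor plate, was at 2.44, 5.65, 1.68 and 3.38 units and then at 6.5, 5.56, 12.4, 31.8 and 47.7 units (1.98 ± 0.57, adjusted p 0.0152; 0.0575 without E11 replicate 3 and 0.228 without E11 replicates 1 and 3), with E13 replicate 2 inside the E11 range. Shh fell from 79.6, 75.4, 102 and 56.8 units to 57.8, 28.4, 31, 31 and 34.5 units (-1.10 ± 0.28, adjusted p 0.00897), with E13 replicate 1 inside the E11 range. Lmx1b was listed at E11 only, at 0.919 to 2.4 units.

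Of 10 tested factors of domains beside the midbrain floor plate, 3 fell and 1 rose. The rise, Pou4f1, lost its call without any one of 7 libraries and the fall of Sim1 without any one of 5, and 1 gene fell without E11 replicates 1 and 3. Dbx1, a factor of more dorsal progenitors, was at 38.2, 28.7, 126 and 49.6 units at E11 and at 0.287, 9.31, 2.14, 11.2 and 3 units at E13 (-3.51 ± 0.61, adjusted p 0.0013). Nkx2-1, which marks the ventral forebrain and is not on this list, was listed at E11 only, at 10.1, 3.28, 30.2 and 14.5 units. Sim2, a list member, was also listed at E11 only, at 7.21, 8.08, 20.7 and 15.2 units. Dbx1, Nkx2-1 and Sim2 were each highest in E11 replicate 3. Of the list, 3 members were listed at E11 only, and 3, Isl1, Lhx1 and Nkx2-2, at E13 only. The sum of the 10 listed neighbouring genes was 126, 85.9, 193 and 119 units at E11 and 45.4 to 71.1 units at E13, and 15 of the 31 members had no value at either age. These genes and the engrailed genes moved with age, and their part in the other differences was not tested.

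**Figure D4:**
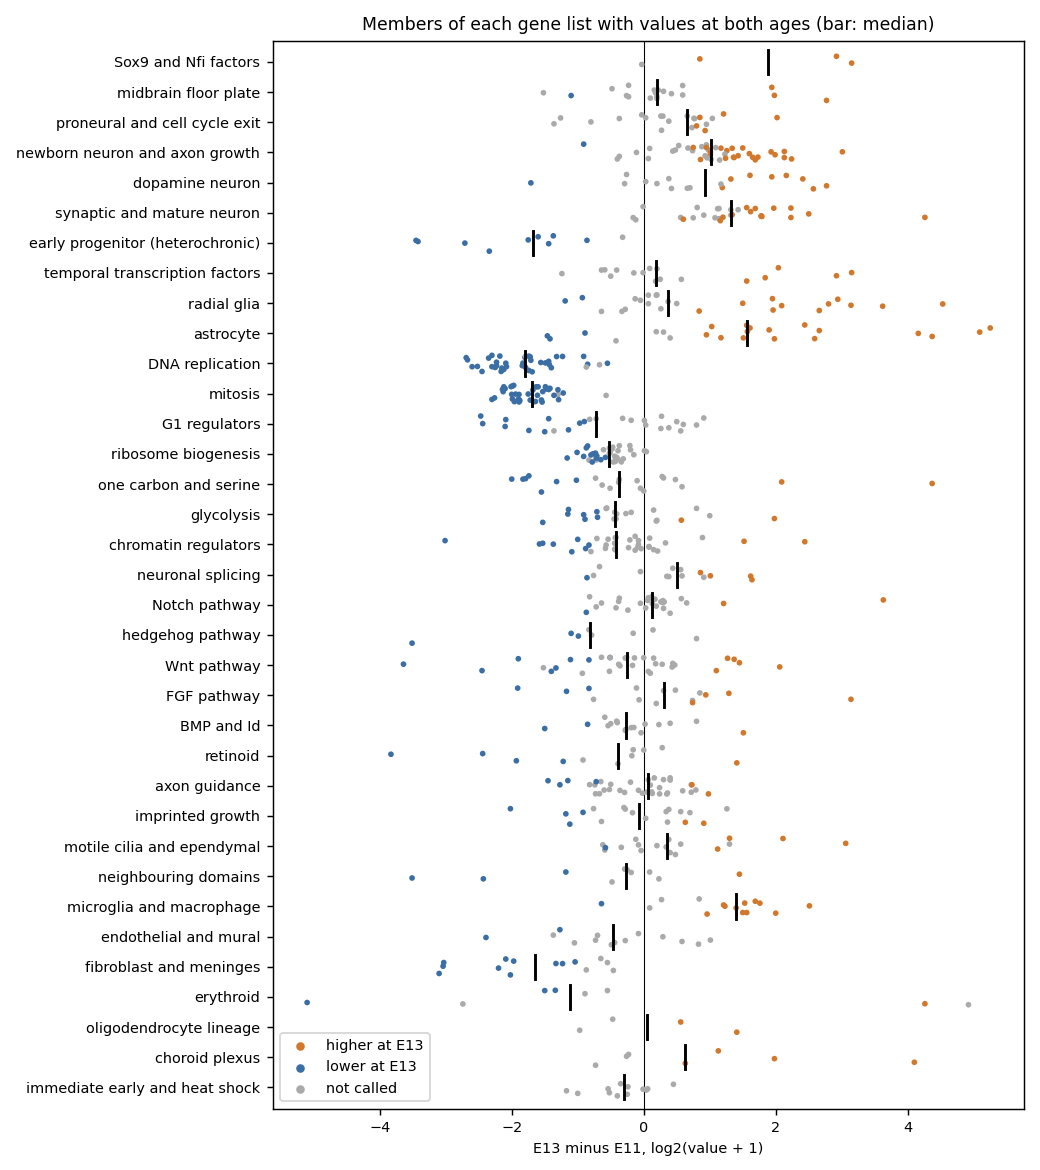
Difference between the ages (E13 minus E11 on log2(value + 1), horizontal axis) for each member of each gene list that was listed at both ages; points are genes, orange where they rose, blue where they fell and grey where they did not pass, and the bar is the list's median. Replication and mitosis genes lie wholly left of 0 (medians -1.80 and -1.70), and newborn neuron, synaptic and astrocyte genes mostly right of it (medians 1.02, 1.32 and 1.56).

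Radial glia and astrocyte genes held several of the largest rises. Of 25 tested radial glia genes 11 rose and 2 fell (median 0.37), and of 23 tested astrocyte genes 16 rose and 3 fell (median 1.56). Fabp7, the fatty acid binding protein of radial glia, was at 308, 371, 381 and 361 units at E11 and at 12315, 5906, 9170, 8375 and 6569 units at E13. Its mean rose 23.8-fold, with a difference of 4.53 ± 0.22 and an adjusted p of 5.2e-12. Ttyh1, a membrane protein of neural progenitors, was at 9.27, 13.1, 12 and 22.6 units and then at 231, 134, 180, 136 and 229 units (3.62 ± 0.21). Slc1a3 (GLAST), a glutamate transporter, was at 49, 36.4, 17.8 and 10.9 units and then at 164, 123, 210, 172 and 230 units (2.80 ± 0.32).

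Ndrg2, a gene of astrocytes and late radial glia, had the largest rise among the named genes. It was at 1.42, 1.48, 2.52 and 3.6 units at E11 and at 179, 79.4, 136, 106 and 112 units at E13, a 54.4-fold higher mean (5.25 ± 0.22, adjusted p 8.72e-13). Mt3, a brain metallothionein, was at 7.78 to 15.6 units and then at 851, 471, 326, 180 and 560 units (5.09 ± 0.43). Aldh1l1, an enzyme of folate metabolism that marks astrocytes, was at 2.65 to 4.07 units and then at 136, 72.1, 112, 57.4 and 105 units (4.37 ± 0.32). Mmd2 was at 0.454 to 3.81 units and then at 29.8 to 58.8 units (4.16 ± 0.32), and Clu, a secreted chaperone, was at 7.77 to 10.7 units and then at 35.8 to 78.2 units (2.59 ± 0.23). None of these genes overlapped between the ages.

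Of the other astrocyte genes 1, Agt, was listed at E11 only. Another 4 were listed at E13 only, among them Aqp4, the astrocyte water channel, at 2.66 to 5.55 units. Gfap, the intermediate filament of mature astrocytes, was listed at neither age. Slc1a2 (GLT-1) was at 7.39 to 13.1 units at E11 and 9.42 to 15.7 at E13 (0.19 ± 0.21) and did not pass. Gja1, connexin 43, fell from 18.6 to 37 units down to 5.97 to 13.7 units (-1.46 ± 0.37, adjusted p 0.00688). On the radial glia list, Sox2 was at 45.3 to 84.7 and 31.2 to 69.1 units (-0.28 ± 0.29) and Vim at 853 to 1140 and 978 to 1475 units (0.20 ± 0.17), and neither passed. Nes, an intermediate filament gene of progenitors, was 1 of the 2 members that fell, from 64.2 to 93 units down to 27.4 to 39.5 units (-1.19 ± 0.34, adjusted p 0.0161). Without E11 replicates 1 and 3 the rises numbered 9 of 25 and 13 of 23, and no member of either list fell.

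Fabp7, Ndrg2 and Mt3 followed different courses in the older captures. Fabp7 averaged 3211 units at E18 and 272 at P70, below its E13 mean, while Ndrg2 averaged 819 and 477 units and Mt3 5281 and 14295 units. Aldh1l1 averaged 74.4 and 10.7 units. These means were set beside the E13 values without a test.

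Metabolic genes moved in 2 directions. Of 21 tested genes of one-carbon and serine metabolism, 2 rose and 7 fell. Psat1, an enzyme of serine synthesis, rose from 52.4 to 93.4 units to between 204 and 438 units (2.09 ± 0.21) and Aldh1l1 was the other rise, while Tyms, which makes thymidylate, fell from 61.3 to 83.6 units to between 15.6 and 26.5 units (-1.74 ± 0.23) and Mthfd1l, a mitochondrial folate enzyme, from 7.86 to 14.7 units to between 1.69 and 2.79 units (-2 ± 0.26). Of 22 tested glycolysis genes, 2 rose and 7 fell. The aldolases went opposite ways: Aldoa fell from 453 to 686 units to between 226 and 344 units (-0.89 ± 0.16), and Aldoc, the form of astrocytes and some neurons, rose from 1.01 to 2.75 units to between 5.77 and 24.6 units (1.98 ± 0.32). Glycolysis falls numbered 4 without any one of E11 replicates 1, 2 and 4 or E13 replicates 2 and 4, and 1 rose in 7 of the 9 fits that left out 1 library.

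Of 37 tested ribosome biogenesis genes 14 fell and none rose (median -0.52); 8 fell without E11 replicate 1 and 1 without E11 replicates 1 and 3. Nucleolin, Ncl, was at 65.3 to 72.3 units at E11 and 32.3 to 47.2 at E13 (-0.78 ± 0.16, adjusted p 0.0011). Of 19 tested polycomb and DNA methylation genes 8 fell and none rose, and of 17 tested BAF remodeller subunits 2 rose and none fell. Uhrf1, which brings maintenance methylation to replicated DNA, was at 71.6, 65.3, 81.7 and 53.4 units and then at 2.4, 6.61, 9.96, 11.4 and 11.4 units (-3.01 ± 0.32, adjusted p 1.05e-06). Dnmt1, the maintenance methyltransferase, fell from 37.8 to 53.2 units to between 13.5 and 20.4 units (-1.53 ± 0.19). The BAF genes that rose were Smarca2 and Actl6b, the latter a subunit known for its switch in postmitotic neurons.

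In the Notch pathway 2 of 27 tested genes, Dner and Dll3, rose and 1 fell; Dll3 lost its call without any one of 7 libraries. Dner, a neuronal transmembrane protein counted among the ligands, rose from 0.847, 1.87, 2.78 and 4.91 units to 44.9, 70.3, 44.5, 30.2 and 23.8 units (3.63 ± 0.30, adjusted p 4.92e-08). The receptor Notch1 was at 21.6 to 32 units and then at 18.3 to 68.6 units (0.30 ± 0.36), and the effectors Hes1 (81.7 to 124, then 47.2 to 178 units) and Hes5 (154 to 464, then 175 to 606 units) overlapped widely and did not pass. Dtx4 was the member that fell (-0.87 ± 0.20, adjusted p 0.00348).

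In the hedgehog pathway 3 of 8 tested genes fell and none rose. Beside Shh, the heparan sulphate proteoglycan Gpc3 fell from 58.8, 46.4, 70.7 and 36.8 units to 7.09, 4.11, 1.8, 4.22 and 2.52 units (-3.51 ± 0.38), and the signal transducer Smo from 25.3 to 37.1 units to between 11 and 21.1 units (-0.99 ± 0.29, adjusted p 0.0176; 0.0693 without E11 replicate 1). In the Wnt pathway 5 of 33 tested genes rose and 8 fell; 2 rose without E11 replicate 1, 3 without E11 replicate 2, and 2 rose and 3 fell without E11 replicates 1 and 3. The secreted inhibitor Dkk2 fell from 49.3, 25.2, 36.6 and 24 units to 0.487, 2.36, 2.32, 2.07 and 1.7 units (-3.64 ± 0.31), while the inhibitor Wif1 was listed at E13 only, at 3.19, 3.18, 12.8, 23.4 and 14.3 units. Wnt5b, a ligand of the non-canonical branch, fell from 30.6 to 57.7 units to between 2.96 and 17.2 units (-1.90 ± 0.39), and the Wnt target Sp5 from 7.21 to 14.9 units to between 0.722 and 1.67 units (-2.45 ± 0.27).

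In the FGF pathway 4 of 15 tested genes rose and 3 fell; 2 rose without E11 replicate 4, and 1 fell without E11 replicate 1. The carrier protein Fgfbp3 rose from 25.6, 42.8, 23.8 and 67 units to 253, 173, 412, 495 and 439 units (3.14 ± 0.34), and the receptor Fgfr2 fell from 27.4 to 30.4 units to between 6.56 and 18.3 units (-1.17 ± 0.28). Of 11 tested retinoid genes 1 rose and 4 fell; 2 fell without E11 replicate 1, and 2 without E11 replicate 3, and the rise, Rxrg, lost its call in 8 of the 9 fits that left out 1 library. Crabp2, which carries retinoic acid to its receptors, was at 550, 722, 653 and 1213 units at E11 and at 55.1, 47.3, 48, 68.4 and 43.2 units at E13 (-3.83 ± 0.45, adjusted p 3.54e-06). Aldh1a1, a retinaldehyde dehydrogenase also known from dopamine neurons, was listed at E11 only, at 54.2, 10, 21.2 and 0.466 units, highest in E11 replicate 1 and below 1 unit in E11 replicate 4.

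Markers of other cell types also moved with age. Among 15 tested genes of microglia and macrophages, 11 were higher and 1 lower at E13. Another 3, among them P2ry12 and Cx3cr1, were listed at E13 only and 1, Mrc1, at E11 only. The summed level was 144 to 242 units at E11 and 319 to 445 at E13. C1qa, a complement gene of microglia, was at 3.18, 6.49, 1.41 and 4.55 units and then at 26, 22.3, 18.2, 17.7 and 7.67 units (2 ± 0.34, adjusted p 0.000211). Of 14 tested fibroblast and meningeal genes 10 fell and none rose, with summed levels of 931, 685, 624 and 367 units at E11 and 196, 99.8, 84.8, 107 and 95.8 units at E13. Col3a1, a fibrillar collagen, was at 43.1, 62, 58.9 and 16.6 units and then at 16.6, 6.74, 1.27, 3.92 and 1.12 units (-3.04 ± 0.58). E11 replicate 4 was the lowest E11 library and E13 replicate 1 the highest E13 library for it. Without E11 replicates 1 and 3, 3 microglia genes rose and 4 fibroblast genes fell.

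Red cell transcripts were abundant in every library. The summed level of 8 erythroid genes was 15171 to 40067 units at E11 and 5145 to 17231 at E13, and members went both ways: 3 fell and 1 rose, with differences from -5.10 to 4.92. Hbb-bh1, an embryonic globin, was at 2941, 5819, 3497 and 2213 units and then at 251, 96.5, 132, 60.3 and 45.5 units, the largest fall of the named genes (-5.10 ± 0.96, adjusted p 0.00104). Hbb-y, the other embryonic beta globin, was at 5868 to 17536 and 3551 to 13190 units and did not pass (-0.55 ± 1.02). It passed in limma only under quantile normalization of the 9 libraries (-0.71, adjusted p 0.0421). Hbb-b1, an adult beta globin, was at 0, 195, 0 and 0 units and then at 397, 509, 371, 245 and 0 units and did not pass (4.92 ± 2.06, adjusted p 0.103). The same uncertainty holds for the globin genes, which have near-identical copies. Endothelial and mural sums were 164 to 244 units and 142 to 195 units, with 2 of 14 genes lower and none higher. With only the 9 libraries of these ages 2 were higher and 6 lower, and with a weight per library 2 and 7. Without E11 replicates 1 and 3 none of these genes passed. The part of these cell types in the differences of the floor plate lists was not tested.

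**Figure D5:**
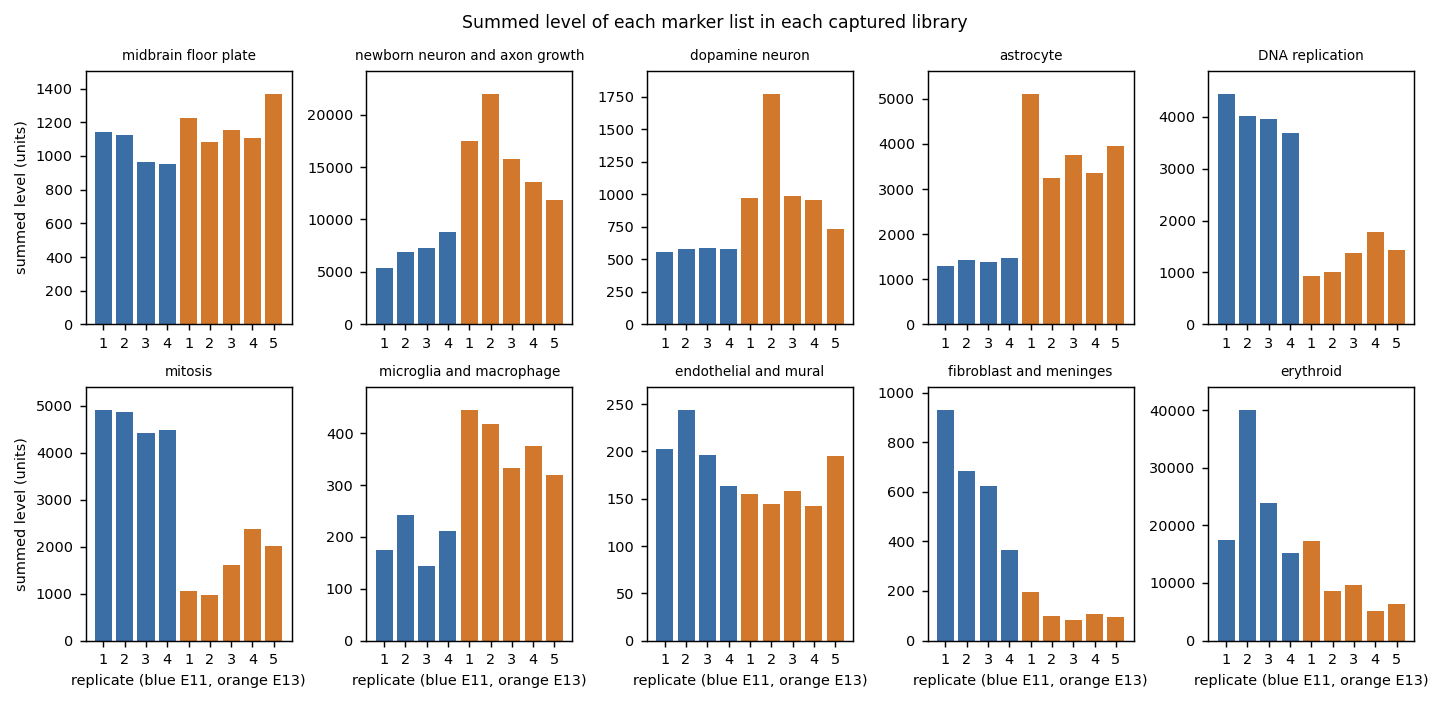
Summed level (units, bars from 0) of the members of 10 marker lists in each E11 library (blue, replicates 1 to 4) and each E13 library (orange, replicates 1 to 5), each panel with its own range. Sums of neuronal, astrocyte and microglia genes are higher in every E13 library, those of replication, mitosis and fibroblast genes are lower, and the floor plate sums of 951 to 1141 and 1085 to 1370 units overlap.

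Genes outside every list were named by their adjusted p. The rises were Serpine2, Arl8a, Prnp, Pcp4, Itm2b, Cdh13, Ankra2 and Rgcc, and the falls were Lbr, Igfbp5, Car14, Fcgrt, Nasp, Emb, Hirip3 and Anp32b. Serpine2, a secreted protease inhibitor, was at 41.8, 34.6, 20.7 and 35.3 units at E11 and at 217, 163, 226, 229 and 188 units at E13 (2.62 ± 0.20, adjusted p 9.15e-09). Pcp4, a calmodulin-binding neuronal peptide, was at 12.9 to 19.8 units and then at 259, 172, 158, 118 and 113 units (3.09 ± 0.27). Car14, a membrane carbonic anhydrase, was at 45.4, 27, 50.4 and 26.6 units and then at 0.982, 1.12, 0.306, 1.62 and 1.71 units (-4.15 ± 0.34, adjusted p 2.57e-07). Lbr, the lamin B receptor of the nuclear envelope, was at 62.9 to 87.2 units and then at 12.6 to 21.2 units (-2.05 ± 0.18), and Nasp, a histone chaperone, was at 246 to 346 units and then at 68.2 to 103 units (-1.75 ± 0.19). In each of these 16 genes the ages did not overlap.

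Among the 814 genes listed at E13 only, 72 had a mean of at least 5 units, and among the 654 listed at E11 only, 39 had. Pdlim3 (28.8 to 64.4 units), Prelp (23.6 to 54.1 units), an extracellular matrix protein, and Sez6 (15.4 to 47.2 units) had the highest means at E13, and Ntrk2, the receptor of BDNF, was at 25.6, 16.8, 20.4, 9.09 and 17 units. Myl7, an atrial myosin light chain, had the highest mean at E11, at 76.9, 4.96, 190 and 7.21 units, and the ventricular Myl2 was at 31.9, 0, 11.7 and 4.25 units. Both cardiac genes were highest in E11 replicates 1 and 3. Lrtm1 was even across the E11 libraries, at 51.7, 40.6, 37.1 and 38.1 units. No fold or test can be given for these genes, since the age without values lies below a mean of 1 unit by the listing rule.

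Of 177 named genes with a test, 152 passed; 26 of these lost the call when 1 of the 9 libraries was left out. Without E11 replicates 1 and 3, the libraries with the most cardiac transcripts, 820 genes passed in place of 2421, with 2 E11 libraries left. No gene that passed in the full set changed direction in any of the 18 other settings.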

How the data were processed

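The members and gene lists were chosen with earlier results of these data known, so no list is independent evidence of its direction. Per the labels' protocols, 1 ng of column-purified RNA was turned into cDNA by Smart-seq2 with 15 cycles of PCR, and libraries were made with Tn5 and 11 further cycles. The protocol uses no molecular identifiers and marks no strand, so a gene and its antisense partner cannot be told apart. The submitters' processing notes name STAR 2.3, Salmon 1.6.0, DESeq2 1.34.0, mm10 and GRCm39, without a role for each; how and on which annotation reads were counted is not stated there.

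Captured libraries have normalized values as deposited by the authors, and the file headers state no unit. They behave as RPKM, since a gene's low values come in equal steps that depend on gene and library. Whole reads could be recovered for 10018 genes (66.8%, within 0.01 reads), which gave the library sizes. The count table of cultured spheres was not used here. The table holds 15139 lines; 142 with 1 of 11 repeated symbols were left out, and 21 symbols turned into dates were kept but not named. Values at an age appear only for genes that average 1 unit or more at it. Sample names matched all columns, with 0 left over.

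The test was limma 3.58.1 (R 4.3.3), with log2(value + 1) as the response, all 20 captured libraries in 1 fit with a mean for each of 4 ages and a trended prior, over the 11567 genes with values at both ages, at an adjusted p of 0.05. The script was tested on simulated data. A gene short of the threshold is not shown to be equal at both ages. The alternatives were another pseudocount, a higher minimum, fewer libraries, other scalings, a weight per library, no trend, the replicate block and leaving out each library.

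Named genes were the 5 Sox9 and Nfi factors; the 12 largest rises and 12 largest falls that passed, did not overlap and had a mean of at least 5 units; up to 4 members of each list that passed, by p; of genes listed at 1 age, the 8 highest and up to 3 of each list; and the 8 rises and 8 falls outside the lists with the smallest adjusted p and a mean of at least 20 units. Members that define a list, such as Th, Tubb3, Stmn2, Dcx, Ddc, Slc1a3, Nes, Clu, Gja1 and Mycn, were named too, chosen after their values were seen. Not every gene the rule selects is described, and some are not reported here. Lists were described by counts and medians and not tested as sets. Gene coordinates are from the GENCODE M21 annotation of GRCm38, promoters from RefSeq on GRCm38.p6, of which 8674 matched a tested gene by symbol.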

Additional observations from a re-analysis of the deposited data

Results flagged for a closer look

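Of 440 groups of 4 or 5 libraries examined, one for each named gene reported here at each age where it was listed, 26 (5.91%) had a highest or lowest library that lay far from the others for the size of the group. Chance alone flags about 1 group in 20.

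In E13 replicate 2, dopamine neuron genes stood above the other E13 libraries: Th was at 238 units (next highest 85.4), Pitx3 at 43.4, Slc6a3 at 11.5, Ret at 6.91 and Cck at 161. Dnmt1 was at 20.4 units in the same library. In E13 replicate 1, Hba-x was at 3168 units (next 1373), Col1a1 at 13, Vtn at 74.7, Shh at 57.8, Spry2 at 52 and Scrg1 at 40 units, each the highest of the E13 libraries. Tal2 was at 9.44 units in E13 replicate 4.

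Among the E11 libraries, replicate 3 was highest for Olig2 (8.12 units, next 0.735), Mycn (38.3), Nasp (346), Khdrbs3 (60.3) and Dtx4 (52.9) and lowest for Tubb2a (126). Replicate 4 was lowest for Col1a1 (5.67), Mthfd1l (7.86) and Tek (0.857) and highest for Cdh13 (3.91). Replicate 1 was highest for Pkm (925) and Bmp4 (12), and replicate 2 for Btg2 (78.5).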

How the results depend on the processing

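The count of 2421 genes (1092 higher, 1329 lower) stayed within 1.5 times under the other pseudocount (2251), the minimum of 5 units (2166 of 8790 genes), median ratio scaling (2311), no trend (2374) and the fits that left out each library (1773 to 2238). It rose to 3811 (1639 higher, 2172 lower) with only the 9 libraries, to 3970 (1856 and 2114) with quantile normalization of these 9, and to 4873 (2235 and 2638) with a weight per library. Leaving out E11 replicates 1 and 3 together, chosen after seeing the data, gave 820 (407 and 413), with fewer samples. The cause of the other moves was not tested. At a mean of at least 5 units, 72 genes were listed at E13 only in place of 814 and 39 at E11 only in place of 654. The median of all genes moved from -0.04 to 0.02 under median ratio scaling and to -0.01 under quantile normalization. Replicate numbers did not pair the samples (correlations of deviations -0.107, -0.085, -0.04 and -0.035 for equal numbers), and the fit with the replicate block gave 2622 calls. Among named genes, Nfic changed sign under median ratio scaling (0.01) and without E11 replicate 2 (0.02; -0.07 to 0.02 over the libraries), Hes5 without E11 replicates 1 and 3 (-0.22) and Cdkn1b without E13 replicate 1 (-0.06; up to 0.46 without E13 replicate 3); none of them passed in any of these. Of 152 named genes that passed, 99 kept the call in each of the 18 other settings in which they were tested. Under the minimum of 5 units 167 of the 177 named genes were tested. The number of libraries and the low reads of genes near 1 unit limit the precision.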

Other observations

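Several gene groups that belong to no result above changed in few members. Of 18 tested imprinted growth genes 2 rose and 4 fell, with 0 rises without E11 replicate 2 and 1 without most other single libraries. Igf2, a fetal growth factor, was at 22.8 to 54.3 units at E11 and 4.02 to 19.2 at E13 (-2.02 ± 0.36, adjusted p 0.000837 in limma), the neighbouring noncoding H19 at 143 to 272 and then 57.5 to 141 units (-1.12 ± 0.24), and Grb10, a growth inhibitor, at 107 to 159 and then 48.9 to 63.4 units (-1.18 ± 0.23). Igf2 also sits on the fibroblast list, whose summed level was lower in every E13 library. Of 36 tested axon guidance genes 2 rose and 4 fell; 0 rose without E11 replicate 1, E11 replicate 2 or E13 replicate 3, and 1 without any one of 4 others. Ephb2, a receptor of ephrins, fell from 37.1 to 50.4 units to between 12.1 and 26.3 units (-1.27 ± 0.29), and Robo3, the receptor of commissural axons, was listed at E13 only, at 19.8, 8.65, 7.54, 2.68 and 2.89 units. Of 17 tested BMP and Id genes 1 rose and 2 fell, with 1 fall without E11 replicate 1, 2 or 4 or E13 replicate 1 or 3. Id4, an inhibitor of basic helix-loop-helix factors, rose from 24.4, 56.1, 44 and 77.3 units to 109, 75.9, 133, 205 and 194 units (1.51 ± 0.39), with E13 replicate 2 inside the E11 range.

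The list of motile cilia and ependyma summed to 1773 to 2531 units at E11 and 2180 to 3314 at E13. Vim, which is also on the radial glia list and whose level is given there, made up a large part of these sums. They are therefore not a level of cilia genes alone. Of 18 tested genes of motile cilia and ependyma 4 rose and 1 fell, and 18 of the 39 members had no value at either age. Dynlrb2, a dynein light chain of cilia, was at 0 to 4.18 units at E11 and 8.24 to 29.7 at E13 (3.06 ± 0.37), and averaged 1573 units at E18 and 4097 at P70. Calml4, a calmodulin-like gene counted on the choroid plexus list, was at 1.56 to 3.89 units and then at 47 to 85.6 units (4.10 ± 0.21, adjusted p 1.26e-11), and averaged 777 and 1675 units. Foxj1, the master factor of motile cilia, was at 1.56 to 5.17 units and then at 5 to 12.7 units and did not pass (adjusted p 0.0802). It passed in limma with only the 9 libraries (adjusted p 0.00874), quantile normalization of these (0.00711) or a weight per library (0.00703). Without E11 replicate 4, 3 genes of this list fell in place of 1, and without any one of the 8 other libraries 0 did; 6 rose without E11 replicate 1. Of 7 tested choroid plexus genes 4 rose, but 1 did without E11 replicate 3 and 2 without E11 replicate 4. Lmx1a, Otx2 and Msx1 of this list are also on the floor plate list, and Msx1 was 1 of the 4 rises. Sulf1, another of them, lost its call without any one of 6 libraries. The choroid plexus marker Ttr was listed at E11 only, at 0.352 to 2.34 units. Bcas1, of early oligodendrocytes, was 1 of 2 rises among 4 tested lineage genes, with Cnp, which lost its call without any one of 7 libraries. Bcas1 was at 5.21 to 13.7 units and then at 20.9 to 31.6 units (1.41 ± 0.24).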
